A study of Mus musculus with 31 samples.

Results

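The 10 genes described here are known targets of the transcription factor p53, namely *Phlda3*, *Cdkn1a*, *Mdm2*, *Ccng1*, *Bax*, *Btg2*, *Trp53inp1*, *Eda2r*, *Zmat3* and *Gdf15*. They were picked by name, and all 10 were found among the 31172 gene symbols quantified in each liver. The choice was made with earlier results on these livers known, and *Phlda3* heads the list, so its levels are counted as selected on their values and are given as a description with no test. RNA was measured in the livers of 31 hFIX-R29X mice, a strain that models hemophilia B: the mice lack their own *F9* gene and carry a human factor IX minigene with a nonsense mutation, which the human transthyretin promoter drives in hepatocytes. All 31 mice therefore share this genotype, the 11 vehicle mice included. The mice were 8 to 14 weeks old, received 6 subcutaneous doses 5 days apart and were killed 48 h after the last dose. DPBS was the vehicle of 11 mice, of which 6 were female and 5 male. The control was Control-GalNAc-ASO, at 15 mg/kg in 4 mice (2 of each sex) or at 20 mg/kg in 6 mice (3 of each sex). *Upf3b*-GalNAc-ASO was given to 5 mice at 10 mg/kg and to 5 mice at 20 mg/kg, with 2 females and 3 males at either dose. An ASO, or antisense oligonucleotide, pairs with its target RNA and leads to its cleavage, GalNAc is a sugar that hepatocytes take up through the asialoglycoprotein receptor, and the control ASO has a scrambled sequence. The *Upf3b* product takes part in nonsense-mediated decay, the pathway that degrades transcripts with a premature stop codon. The doses of the 2 agents match only at 20 mg/kg.

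p53, encoded by *Trp53* in mice, is held at a low level in unstressed cells because the ubiquitin ligase Mdm2 marks it for degradation. DNA damage, ribosomal stress and other insults release it, and it then binds its response elements, each made of a pair of half-sites, and activates transcription of genes that stop the cell cycle, promote apoptosis or act back on p53 itself. Hepatocytes divide rarely, and in liver *Cdkn1a*, *Mdm2* and *Ccng1* are commonly read as signs of p53 activity. Several of these genes, *Gdf15*, *Cdkn1a* and *Btg2* among them, are also switched on by other stress signals without p53.

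The stretch of DNA just before the transcription start was read for the members whose levels the results turn on, since the p53 half-site is the sequence feature that this group of genes is known for. The windows hold 250 bases before the RefSeq start (GRCm38.p6) and are written 5′ to 3′ along the strand of the gene, with exact p53 half-sites of 10 bases in capitals and all other bases in lower case. The half-site reads the same on both strands, so a match on one is a match on the other. All windows lie upstream of the RefSeq start, and the last bases of those of *Ccng1* and *Cdkn1a* fall inside the gene as GENCODE places it.

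*Phlda3*, chr1:135765835-135766084, plus strand: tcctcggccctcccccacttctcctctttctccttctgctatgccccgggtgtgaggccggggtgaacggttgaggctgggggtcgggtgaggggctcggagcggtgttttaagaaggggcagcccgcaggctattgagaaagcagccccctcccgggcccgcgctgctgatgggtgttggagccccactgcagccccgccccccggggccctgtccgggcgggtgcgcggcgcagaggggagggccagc

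*Ccng1*, chr11:40755287-40755536, minus strand: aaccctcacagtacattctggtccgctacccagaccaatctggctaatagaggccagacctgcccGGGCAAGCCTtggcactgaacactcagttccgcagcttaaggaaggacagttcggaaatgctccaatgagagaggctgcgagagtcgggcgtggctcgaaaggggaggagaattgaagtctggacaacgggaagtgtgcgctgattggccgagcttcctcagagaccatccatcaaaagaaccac

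*Bax*, chr7:45466899-45467148, minus strand: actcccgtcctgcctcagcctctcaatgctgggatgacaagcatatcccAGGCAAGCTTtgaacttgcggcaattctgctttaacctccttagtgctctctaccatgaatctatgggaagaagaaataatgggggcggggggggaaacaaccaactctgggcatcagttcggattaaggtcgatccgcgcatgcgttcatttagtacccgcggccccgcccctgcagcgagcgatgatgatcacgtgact

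*Mdm2*, chr10:117710759-117711008, minus strand: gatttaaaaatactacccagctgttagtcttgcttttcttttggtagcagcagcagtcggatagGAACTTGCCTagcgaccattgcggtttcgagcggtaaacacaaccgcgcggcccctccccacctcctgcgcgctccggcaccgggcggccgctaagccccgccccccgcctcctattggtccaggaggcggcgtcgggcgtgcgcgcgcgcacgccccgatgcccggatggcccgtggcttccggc

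*Cdkn1a*, chr17:29090729-29090978, plus strand: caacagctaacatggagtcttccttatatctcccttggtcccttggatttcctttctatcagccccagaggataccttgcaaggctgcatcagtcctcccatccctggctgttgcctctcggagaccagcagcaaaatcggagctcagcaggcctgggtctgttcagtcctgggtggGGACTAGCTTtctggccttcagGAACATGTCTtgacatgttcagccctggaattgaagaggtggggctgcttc

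*Ccng1* had 1 half-site, at 185 to 176 bases before the start, and another decamer of the same pattern, with at most 1 other letter and the C and G of its core kept, stood directly before it, so that both together read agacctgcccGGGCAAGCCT. *Cdkn1a* had 2 half-sites before its upstream start, at 73 to 64 and at 51 to 42 bases, and the second of them also had a neighbour, reading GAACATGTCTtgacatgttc. *Bax* had a single half-site at 201 to 192 bases and *Mdm2* a single one at 186 to 177 bases. No exact half-site stood in the *Phlda3* window, nor in those of *Btg2*, *Eda2r* and *Gdf15* (2 starts) or at the second *Cdkn1a* start. Of 32851 mouse windows of this length, 7.13% held at least 1 half-site and 19, or 0.0578%, held the pair of neighbouring decamers. A match describes the letters of these windows only. No window was matched for *Trp53inp1* and *Zmat3*.

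Depth differed between livers. The most common value above 0 in each liver was taken as 1 read. This gave 1020676 to 7391615 inferred reads per liver, with a median of 3627941. The paper's methods state a higher average depth, and the reason for the gap was not tested. All read counts given here are inferred in this way. Levels are in TPM, the deposited unit, in which the reads of each liver are scaled to a common total. On this scale 3 reads were worth 0.406 to 2.94 TPM. That range reflects the depth of the livers. The limit of 3 reads, given below for a liver at 0, covers counting error only. 4 livers were under 1.5 M reads, mouse 1 of the Control-GalNAc-ASO 20 mg/kg group, mice 6 and 7 of the DPBS group and mouse 3 of the *Upf3b*-GalNAc-ASO 10 mg/kg group. All 9 hepatocyte markers found in the files were detected in every group, with summed levels of 18365 to 40654 TPM per liver. *Upf3b* itself stood at 2.57 to 16.7 TPM in the *Upf3b*-GalNAc-ASO 20 mg/kg group, 3.95 to 53.7 TPM at 10 mg/kg, 27.1 to 78.7 TPM with the control ASO at 15 mg/kg, 85.3 to 135.2 TPM with the control ASO at 20 mg/kg and 33.8 to 136 TPM with DPBS. The 53.7 TPM was that of mouse 3, the liver under 1.5 M reads. It lay within the ranges of DPBS and of the control ASO at 15 mg/kg, while the other livers at 10 mg/kg had 3.95 to 23.3 TPM. On the log2 scale, *Upf3b* was compared by group. It fell by 3.87 at 20 mg/kg against the control ASO (limma, adjusted p = 1.59e-05), and its difference at 10 mg/kg against the control ASO at 15 mg/kg was -1.73 and did not pass (adjusted p = 0.211), while it fell by 2.57 against DPBS (adjusted p = 0.00455).

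1 liver has to be named before the results, mouse 2 of the *Upf3b*-GalNAc-ASO 20 mg/kg group, a male. It had the highest level of all 31 livers in 4 of the 10 members, *Cdkn1a*, *Btg2*, *Trp53inp1* and *Gdf15*, and the lowest of its group in *Phlda3*, *Ccng1* and *Bax*. It also had the highest level of all livers in 17 of 17 immediate early genes, the transcripts that cells make within minutes of a stimulus. Over 9840 genes it was highest for 4.61%, the fifth highest share (other livers, 0.894% to 16.6%, median 1.85%). For 20 mg/kg against the control ASO and against DPBS, each member's difference that rests on this liver is also given without it. The comparisons between the 2 doses are given for each member with this liver included only.

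Throughout, fold changes are differences of log2(TPM + 1) with their standard errors, from limma fits of the 2 groups compared with sex as a covariate. This scale understates the change of low genes. A gene was tested where its median reached 5 TPM in 1 or both of the groups compared, and it was called at an adjusted p under 0.05, with the Benjamini-Hochberg adjustment over all genes tested. The p-values measure the spread between these mice. The comparisons with DPBS use the same 11 vehicle mice, and the comparisons of 1 *Upf3b*-GalNAc-ASO group with its control ASO and with DPBS use the same treated mice, so their values are set side by side and are not separate evidence.

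*Phlda3* encodes a small protein with a pleckstrin homology domain that competes with Akt for membrane lipids and so holds back survival signaling. Its gene lies at chr1:135766119-135769136 on the plus strand of GRCm38. In the 5 livers of the *Upf3b*-GalNAc-ASO 20 mg/kg group it measured 86.5, 15.7, 46.5, 33.7 and 81.7 TPM for mice 1, 2, 4, 5 and 6. In the 5 livers at 10 mg/kg it measured 42.5, 10.7, 12.7, 11.3 and 14.9 TPM for mice 1 to 5. The 2 females of the 20 mg/kg group had its 2 highest levels, and mouse 1, a female, stood above the other 4 livers of the 10 mg/kg group. The control ASO livers had 3.92, 3.81, 1.93 and 8.48 TPM at 15 mg/kg and 4.96, 1.35, 0, 3.56, 2.84 and 2.19 TPM at 20 mg/kg. The 11 DPBS livers ranged from 0.844 to 12.5 TPM with a median of 3.54 TPM. Every liver of the 20 mg/kg group was above every DPBS and control ASO liver, whereas 3 of the 5 livers at 10 mg/kg stood above the highest DPBS liver and the other 2 below it. Of those 3, mouse 3 had 12.7 TPM on 13 reads, beside 12.5 TPM in the highest DPBS liver. In mouse 3 a single read was worth 0.980 TPM, so its place above that DPBS liver is within counting error. The *Phlda3* levels rest on 69 to 406 reads per liver at 20 mg/kg and on 13 to 131 reads at 10 mg/kg. In the DPBS and control ASO groups they rest on 0 to 51 reads per liver, and the liver at 0 allows up to 0.957 TPM (3 reads). The log2 differences were 4.05 at 20 mg/kg against the control ASO (16.6-fold on this scale) and 3.34 against DPBS, and at the lower dose 1.82 against the control ASO at 15 mg/kg and 1.87 against DPBS. Without mouse 2 the values at 20 mg/kg were 4.27 and 3.65. The 2 control ASO groups differed from DPBS by 0.11 and -0.61. *Phlda3* passed the filter on low values only through the *Upf3b*-GalNAc-ASO groups.

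*Ccng1*, or cyclin G1, is an early p53 target whose product recruits phosphatase 2A to Mdm2 and so takes part in the feedback on p53 (chr11:40748552-40755311, minus strand). It measured 40.5, 17.7, 35.5, 38.1 and 34.1 TPM in the livers given *Upf3b*-GalNAc-ASO at 20 mg/kg and 23.1, 26.4, 34.3, 36.03 and 19.3 TPM at 10 mg/kg. Under the control ASO it was 19.6, 10.5, 20.1 and 23.1 TPM at 15 mg/kg and 5.11 to 19.1 TPM at 20 mg/kg, median 10.5 TPM. DPBS livers spanned 4.22 to 22.6 TPM, median 10.4 TPM. All livers at 20 mg/kg but mouse 2 were above every control and DPBS liver. *Ccng1* rose 3.02-fold at 20 mg/kg against the control ASO, a log2 difference of 1.59 ± 0.42 (SE, limma adjusted p = 0.0477), and by 1.68 ± 0.40 against DPBS (adjusted p = 0.0327). Without mouse 2 these were 1.75 (adjusted p = 0.0323) and 1.86 (adjusted p = 0.0267). At 10 mg/kg the differences were 0.62 ± 0.40 against the control ASO (adjusted p = 0.452) and 1.44 ± 0.40 against DPBS (adjusted p = 0.183), neither past the threshold.

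*Bax* encodes the protein that makes pores in the outer mitochondrial membrane during apoptosis (chr7:45461697-45466898, minus strand). It measured 188, 122, 178, 123 and 249.9 TPM in the livers at 20 mg/kg. The lower dose gave 107, 185, 56.8, 70.1 and 112 TPM in mice 1 to 5. The control ASO livers had 57.1, 62.9, 36.4 and 105 TPM at 15 mg/kg and 84.3, 62.1, 76.9, 78.6, 78.4 and 109.7 TPM at 20 mg/kg, and DPBS livers had 31.2 to 125 TPM with a median of 67.0 TPM. The *Upf3b*-GalNAc-ASO livers at 20 mg/kg did not overlap those of the control ASO at the same dose, while the highest DPBS liver lay above the 2 lowest treated ones. *Bax* rose 2.09-fold against the control ASO at 20 mg/kg, by 1.06 ± 0.26 on the log2 scale (SE, limma adjusted p = 0.0355), and by 1.23 ± 0.30 against DPBS (adjusted p = 0.0431). Without mouse 2 the values were 1.14 (adjusted p = 0.0201) and 1.37 (adjusted p = 0.0275). At 10 mg/kg the differences of 0.67 ± 0.41 against the control ASO and 0.42 ± 0.30 against DPBS did not pass (adjusted p = 0.434 and 0.727).

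**Figure D1:**
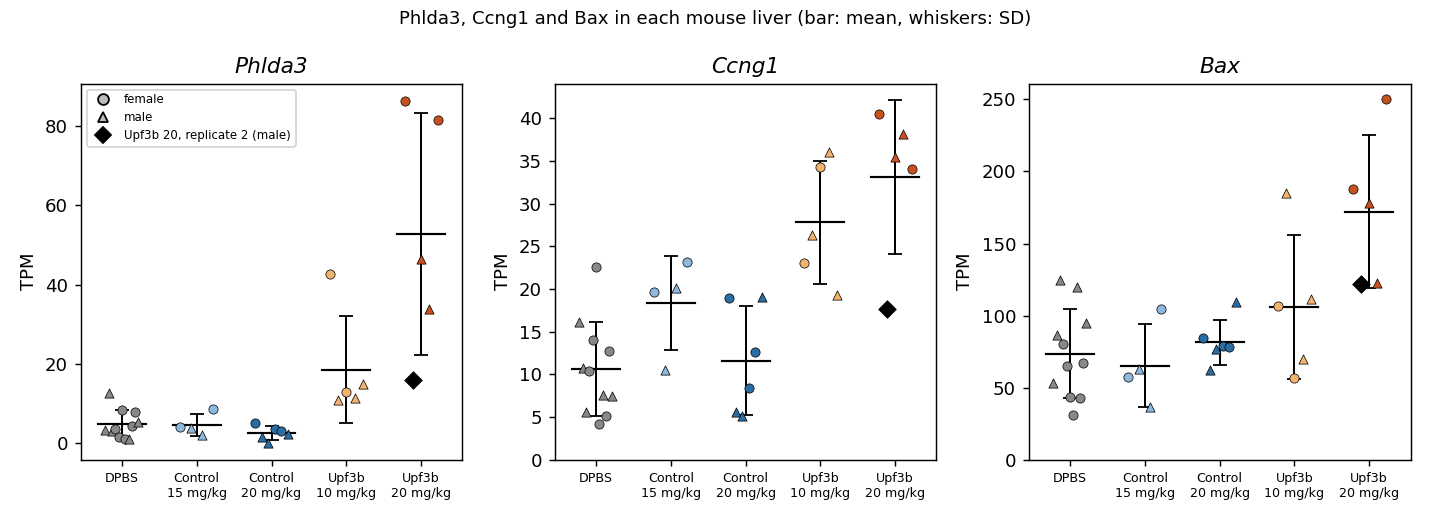
Levels of *Phlda3*, *Ccng1* and *Bax* in TPM (y axis, linear) for every liver in the 5 groups (x axis), with circles for females, triangles for males, a black diamond for mouse 2 of the *Upf3b*-GalNAc-ASO 20 mg/kg group and bars for the mean ± SD. The *Phlda3* levels at 20 mg/kg, from 15.7 to 86.5 TPM, lie above all DPBS and control ASO livers, and the black diamond is the lowest of its group for each of the 3 genes.

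The calls of *Ccng1* and *Bax* lay close to the threshold. Against the control ASO at 20 mg/kg, *Ccng1* was no longer called when any of control mice 1 to 5 or treated mice 1, 4, 5 or 6 was left out (adjusted p up to 0.134), and *Bax* when any of control mice 1 to 5 or treated mice 1, 4 or 6 was left out (up to 0.114). Against DPBS, *Ccng1* was lost without DPBS mouse 3, 8 or 11 or treated mouse 1, 4, 5 or 6 (up to 0.111), and *Bax* without DPBS mouse 1, 2, 5, 9, 10 or 11 or treated mouse 1, 4 or 6 (up to 0.247). Both differences were above 0 under each of these omissions.

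*Mdm2* encodes the ubiquitin ligase that p53 switches on and that in turn degrades p53 (chr10:117688875-117710758, minus strand). Its level was 49.7, 192, 261, 147 and 236.9 TPM in the 20 mg/kg livers and 89.3, 126, 90.1, 183 and 91.5 TPM at 10 mg/kg. The control ASO livers had 130.4 to 191 TPM at 15 mg/kg and 86.6 to 162 TPM at 20 mg/kg, and the DPBS livers 41.1 to 206 TPM. All of these ranges overlapped. The log2 differences were 0.40 ± 0.36 at 20 mg/kg against the control ASO (limma adjusted p = 0.590), 0.91 ± 0.39 against DPBS (adjusted p = 0.348) -0.53 ± 0.32 at 10 mg/kg against the control ASO at 15 mg/kg (adjusted p = 0.423) and 0.45 ± 0.35 at 10 mg/kg against DPBS (adjusted p = 0.742). Mouse 1, which had the highest *Phlda3* level of all 31 livers, had the lowest *Mdm2* level of its group, and without it *Mdm2* differed from DPBS by 1.46 (adjusted p = 0.0405). Of 16 omissions of 1 liver against DPBS, this was the only 1 in which *Mdm2* was called. Against the control ASO at 20 mg/kg none of 11 omissions gave a call (limma adjusted p of 0.170 to 0.885). The control ASO at 15 mg/kg also stood above DPBS, by 0.92 ± 0.34, which did not pass (adjusted p = 0.691).

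*Cdkn1a* encodes p21, the inhibitor of cyclin-dependent kinases that carries much of the p53 cell cycle arrest, and *Btg2* an antiproliferative partner of the CCR4-NOT deadenylase. *Cdkn1a* (chr17:29090976-29100727, plus strand) measured 21.7, 259, 1.38, 2.44 and 14.4 TPM in the 20 mg/kg livers, so mouse 2 was far above the others, and mice 4 and 5 lay inside the control range. The livers at 10 mg/kg had 12.3, 6.72, 17.6, 9.33 and 1.03 TPM. The control ASO livers spanned 0.238 to 13.0 TPM at 15 mg/kg and 0 to 10.0 TPM at 20 mg/kg, and the DPBS livers 0 to 16.0 TPM, with 4 of the 11 at 0. The log2 difference at 20 mg/kg was 2.16 ± 1.01 against the control ASO (limma adjusted p = 0.268) and 2.79 ± 0.88 against DPBS (adjusted p = 0.149), and without mouse 2 these were 1.11 and 1.70 (adjusted p = 0.468 and 0.343). At 10 mg/kg, where no liver stood apart, it was 1.99 ± 0.67 against DPBS (adjusted p = 0.351) and 1.22 ± 0.65 against the control ASO (adjusted p = 0.373).

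*Btg2* (chr1:134075170-134079120, minus strand) was 7.46, 213, 4.14, 1.47 and 5.54 TPM in the 20 mg/kg livers, and 0 to 8.90 TPM in all the others. Mouse 2 alone stood outside that range. The differences of 1.76 ± 0.93 and 2.23 ± 0.80 against the control ASO and DPBS did not pass (limma adjusted p = 0.323 and 0.223), and without mouse 2 the gene fell below the filter, with values of 0.69 and 1.24. Like *Phlda3*, *Cdkn1a* and *Btg2* passed the filter only through *Upf3b*-GalNAc-ASO groups.

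*Gdf15* encodes a secreted stress cytokine that suppresses appetite through a brainstem receptor (chr8:70629393-70632456, minus strand). The livers at 20 mg/kg had 702, 10376, 96.7, 157 and 136 TPM. The value of mouse 2 rests on 54041 reads, and mouse 1 had the next highest level of all 31 livers. The livers at 10 mg/kg had 260.1, 88.3, 176, 123 and 93.6 TPM, the control ASO livers 67.2 to 194 TPM at 15 mg/kg and 37.2 to 138 TPM at 20 mg/kg, and the DPBS livers 44.5 to 307 TPM with a median of 92.6 TPM. At 20 mg/kg the log2 difference was 2.57 ± 1.21 against the control ASO (limma adjusted p = 0.300) and 2.27 ± 0.88 against DPBS (adjusted p = 0.300). Without mouse 2 it was 1.47 ± 0.50 (adjusted p = 0.139) and 1.15 ± 0.44 (adjusted p = 0.279).

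*Trp53inp1* encodes a nuclear protein that promotes p53 phosphorylation and cell death (chr4:11156431-11174379, plus strand). It measured 8.52, 77.6, 8.29, 1.95 and 15.4 TPM at 20 mg/kg, against 7.82 to 25.6 TPM with the control ASO at the same dose and 3.33 to 20.9 TPM with DPBS. Apart from mouse 2 the treated livers were inside or below the control range. The log2 difference against the control ASO was -0.01 ± 0.63 with all livers and -0.71 ± 0.51 without mouse 2, and neither passed (limma adjusted p = 0.995 and 0.479). Against DPBS it was 0.45 with all livers and -0.20 without mouse 2.

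**Figure D2:**
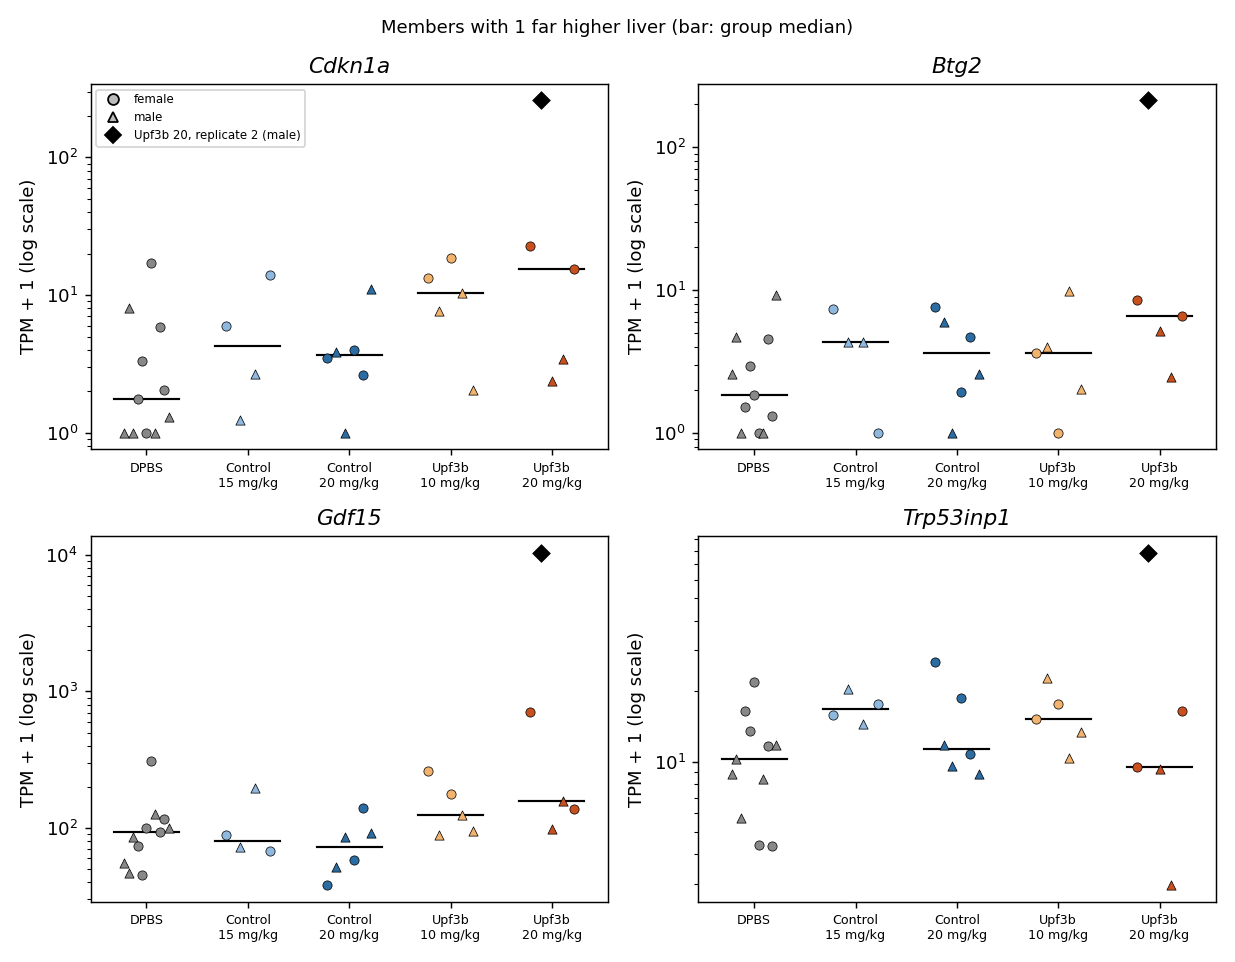
Levels of *Cdkn1a*, *Btg2*, *Gdf15* and *Trp53inp1* (TPM + 1 on a log axis) in every liver by group, with symbols for sex, a black diamond for mouse 2 of the *Upf3b*-GalNAc-ASO 20 mg/kg group and a bar at each group median. The black diamond is the highest of all 31 livers in each panel, at 259, 213, 10376 and 77.6 TPM, while most other treated livers lie among the controls.

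The other 2 members showed other patterns. *Zmat3* encodes a zinc finger protein that binds RNA and regulates splicing (chr3:32334792-32366014, minus strand), and its highest levels were under the control ASO at 20 mg/kg, from 12.0 to 26.2 TPM with a median of 17.9 TPM, against 3.75 to 14.8 TPM and a median of 6.46 TPM with DPBS. The 2 ranges overlap only between 12.0 and 14.8 TPM. That difference of 1.24 ± 0.38 did not pass after adjustment (limma p = 0.00325, adjusted p = 0.349). The *Upf3b*-GalNAc-ASO livers had 5.20 to 20.1 TPM at 20 mg/kg and 3.45 to 23.2 TPM at 10 mg/kg, and at 20 mg/kg differed from the control ASO by -0.78 ± 0.42 (adjusted p = 0.323) and from DPBS by 0.39 ± 0.46 (adjusted p = 0.795). *Eda2r*, a receptor of the tumor necrosis factor family that binds ectodysplasin A2 (chrX:97333840-97377216, minus strand), was near the detection limit, at 0 to 2.58 TPM in DPBS livers with 6 of 11 at 0, and at 2.56, 2.30, 10.1, 0 and 1.03 TPM at 20 mg/kg. It passed the filter in no comparison and was not tested.

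**Figure D3:**
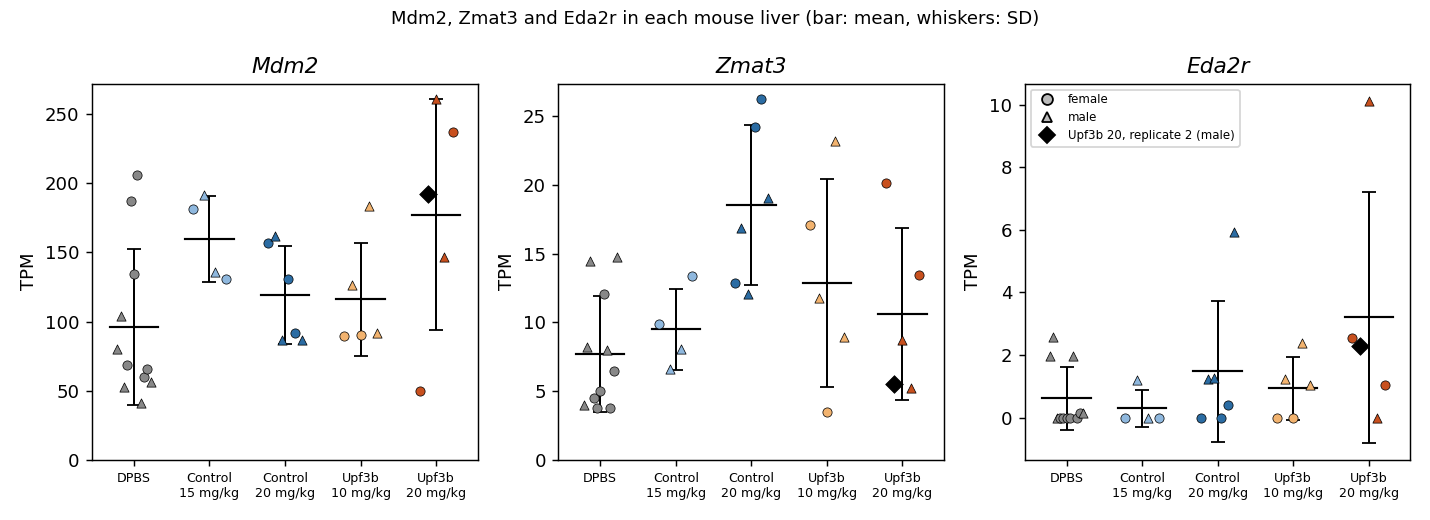
Levels of *Mdm2*, *Zmat3* and *Eda2r* in TPM (y axis, linear) in every liver by group, with symbols for sex, a black diamond for mouse 2 of the *Upf3b*-GalNAc-ASO 20 mg/kg group and bars for the mean ± SD. The *Mdm2* ranges of all groups overlap, *Zmat3* is highest under the control ASO at 20 mg/kg (12.0 to 26.2 TPM), and *Eda2r* stays at or under 10.1 TPM.

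Counted over the comparisons, called members were found at 20 mg/kg only, in these fits. *Phlda3* is left out of the counts of calls. Against the control ASO, 2 of the 8 members tested were called, both higher, where 2.52% of 9376 genes were called in either direction and 0.928% were called higher. Against DPBS the same 2 of 8 were called, where 1.13% of 9078 genes were called in either direction and 0.297% higher. These 8 include *Cdkn1a* and *Btg2*, which passed the filter only through the *Upf3b*-GalNAc-ASO group. For them the filter was not independent of the difference tested, and neither was called in these fits. None of the 7 members tested at 10 mg/kg was called against the control ASO at 15 mg/kg (0.295% of 9166 genes were) or against DPBS (0.376% of 9032 genes were). The unadjusted limma p was under 0.05 for 0 of these 7 against the control ASO, where 1446 of 9166 genes reached it. Against DPBS it was under 0.05 for 2 of 7, *Ccng1* and *Cdkn1a*, where 747 of 9032 genes reached it. *Cdkn1a* passed the filter there only through the *Upf3b*-GalNAc-ASO group, so for it the filter was again not independent of the difference. Over all genes the calls at 20 mg/kg against the control ASO were 87 higher and 149 lower, and after scaling the livers by their median ratio they were 149 higher and 127 lower. *Ccng1* and *Bax* were called higher under both scalings.

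With *Phlda3* left out, the differences of the other 9 members were mostly above 0. At 20 mg/kg their median log2 difference was 1.06 against the control ASO, with 7 of 9 above 0, and 1.23 against DPBS, with 9 of 9 above 0, where the medians of all genes tested were -0.12 and 0.05. Without mouse 2 the medians of the 9 were 0.69 (7 above 0) and 1.15 (8 above 0). For the lower dose they were 0.41 (6 of 9 above 0) and 0.51 (9 of 9), against -0.03 and 0.03 for all genes. The control ASO groups also differed from DPBS, by medians of 0.63 at 15 mg/kg (7 of 9 above 0) and 0.47 at 20 mg/kg (8 of 9). The 0.51 of the lower *Upf3b*-GalNAc-ASO dose against DPBS therefore does not stand apart from the control ASO. These medians include members below the filter. By non-overlap, 2 members, *Phlda3* and *Bax*, had every liver at 20 mg/kg above every control ASO liver, where 1.65% of genes did, and 1 member, *Phlda3*, stood above every DPBS liver, where 0.33% of genes did. The *Phlda3* levels at 10 mg/kg were above every control ASO liver, where 2.08% of genes were, and no member was above every DPBS liver, where 0.0775% of genes were. Since *Phlda3* was chosen with its values known, nothing is read from its place among these.

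**Figure D4:**
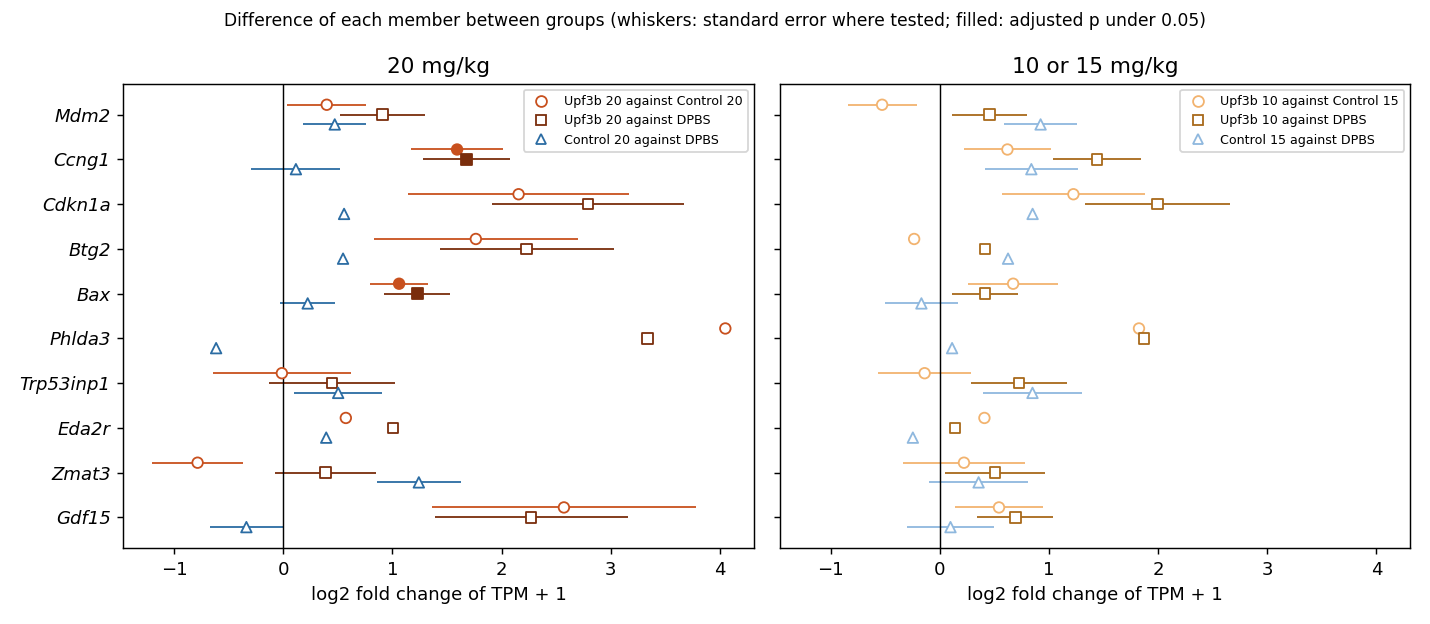
Log2 difference of each member in the 6 comparisons of an ASO group with its control ASO or with DPBS, as log2(TPM + 1), with bars for the standard error and filled points where the adjusted p was under 0.05. Points without a bar had no test, and the filled points are *Ccng1* and *Bax* at 20 mg/kg.

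The 2 control ASO groups were also set against DPBS. None of the 6 members tested in either control group was called, where 0% of 8971 genes at 15 mg/kg and 0% of 9140 genes at 20 mg/kg were called by limma. An unadjusted p under 0.05 was found for 644 and 905 genes, among them *Mdm2* at 15 mg/kg and *Zmat3* at 20 mg/kg. The medians of the 9 members other than *Phlda3* were 0.63 (7 of 9 above 0) at 15 mg/kg and 0.47 (8 of 9) at 20 mg/kg, against 0.07 and 0.15 for all genes. Scaling by median ratio brought the median of all genes at 20 mg/kg from 0.15 to 0.05. The 2 control doses differed by a median of -0.26 over these 9 members, with 0 of 6 tested and 0% of 9222 genes called (887 genes at an unadjusted p under 0.05).

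The 2 doses of *Upf3b*-GalNAc-ASO were also compared directly. No member of 8 tested was called between 20 and 10 mg/kg, where 0% of 9187 genes were called and 464 had an unadjusted p under 0.05. *Bax* was higher at 20 mg/kg by 0.76 ± 0.38 (limma adjusted p = 0.891) and *Ccng1* by 0.23 ± 0.40 (adjusted p = 0.942). *Phlda3* differed by 1.44, its livers at 20 mg/kg spanning 15.7 to 86.5 TPM and those at 10 mg/kg 10.7 to 42.5 TPM, so that the groups overlapped. The difference between the effects at the 2 dose levels, each against its own control ASO, was 0.95 ± 0.57 for *Ccng1*, 0.92 ± 0.50 for *Mdm2* and 0.36 ± 0.47 for *Bax*. None passed (adjusted p = 0.671, 0.642 and 0.860), and 0% of 9797 genes were called, with 799 at an unadjusted p under 0.05. The calls at 20 mg/kg and their absence at 10 mg/kg were thus not shown to differ.

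Male and female DPBS livers were compared for the members' levels without treatment. None of the 6 tested was called, where 1.41% of 8998 genes were. *Bax* was higher in males by 0.80 ± 0.31 (limma p = 0.0181, adjusted p = 0.375) and *Mdm2* lower, at -0.73 ± 0.36 (adjusted p = 0.533).

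Of 35 other known p53 targets, 18 to 20 passed the filter in the 6 comparisons of an ASO group with its control ASO or DPBS, and 1 was called. *Aen*, a nuclease that takes part in DNA fragmentation during apoptosis, measured 100.3, 66.4, 102, 91.8 and 233 TPM at 20 mg/kg, 28.1 to 82.3 TPM with the control ASO at that dose and 11.3 to 82.8 TPM with DPBS. It rose by 1.47 ± 0.36 against DPBS (limma adjusted p = 0.0461), a call lost in 11 of 16 omissions of 1 liver, and its difference from the control ASO was 1.04 ± 0.31 (adjusted p = 0.0744). *Tnfrsf10b*, a death receptor, had the highest difference of the list at 10 mg/kg against the control ASO (1.71 ± 0.41, adjusted p = 0.0758) and was among the 2 highest at 20 mg/kg (1.31 ± 0.35, adjusted p = 0.0521). *Sesn2*, a stress-induced inhibitor of mTORC1 signaling, was the other, at 1.39 ± 0.46 (adjusted p = 0.107) and 1.17 ± 0.49 without mouse 2 (adjusted p = 0.202), and *Tigar* and *Polk* were the lowest there, at -1.09 and -0.43. The remaining names by this rule were *Rrm2b* (0.93) above and *Abhd4* (-0.89) and *Sesn1* (-0.78) below at 10 mg/kg against the control ASO, and *Ercc5* (0.95) and *Tnfrsf10b* (0.86) above and *Abhd4* (-1.26) and *Tigar* (-0.97) below against DPBS. None of these passed. For the control ASO against DPBS the extremes were *Polk* (1.33) and *Sesn2* (1.27) against *Tigar* (-0.94) and *Tnfrsf10b* (-0.75) at 15 mg/kg, and *Polk* (1.31) and *Gadd45a* (0.97) against *Abhd4* (-0.93) and *Xpc* (-0.64) at 20 mg/kg. The median of the list's tested genes was 0.20 at 20 mg/kg against the control ASO and 0.42 against DPBS, and -0.07 and 0.16 at 10 mg/kg.

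*Trp53*, the transcript of p53 itself, was low and not called in any comparison. It measured 8.89, 10.6, 14.7, 4.88 and 9.86 TPM at 20 mg/kg, 5.81 to 19.8 TPM with the control ASO at that dose and 0.788 to 17.6 TPM with DPBS. The log2 differences were 0.15 ± 0.49 against the control ASO (limma adjusted p = 0.899) and 0.86 ± 0.56 against DPBS (adjusted p = 0.573) at 20 mg/kg, and 0.84 (adjusted p = 0.493) and 0.55 (adjusted p = 0.803) at 10 mg/kg. p53 is controlled largely at the protein level, which was not measured here. Of 22 regulators of p53, *Trp53* included, 14 or 15 were tested in each of these comparisons and none was called. The highest and lowest at 20 mg/kg against the control ASO were *Kat5* (0.67) and *Rpl5* (0.42), and *Mdm4* (-0.95) and *Ep300* (-0.69). Against DPBS *Chek2* (0.70) followed *Trp53*, and *Trp53bp1* (-1.17) and *Crebbp* (-0.67) were lowest. At 10 mg/kg *Hipk2* (1.32) was highest and *Rpl11* (-0.80) and *Rchy1* (-0.73) lowest against the control ASO, and *Ep300* (0.99) highest and *Rchy1* (-0.73) and *Rpl5* (-0.55) lowest against DPBS. With the control ASO at 15 mg/kg the extremes were *Daxx* (0.59), *Rpl11* (0.42), *Rpl5* (-0.48) and *Hipk2* (-0.76), and at 20 mg/kg *Trp53* (0.80), *Daxx* (0.66), *Hipk2* (-0.46) and *Trp53bp1* (-0.96).

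Other gene lists show what else moved with the members. No gene of the lists for immediate early genes, the integrated stress response, proliferation, or markers of hepatocytes, Kupffer cells, stellate cells, cholangiocytes, lymphocytes and neutrophils, or erythroid cells was called in any of the 6 comparisons. Few genes of some lists were tested per comparison. These were 0 to 2 of 11 lymphocyte and neutrophil markers, 1 or 2 of 7 cholangiocyte markers and 4 to 6 of 17 integrated stress response genes. No lymphocyte or neutrophil marker was tested in the comparisons at 20 mg/kg, so none could be called there. For these lists the absence of calls does not show an absence of change. Of 11 genes of nonsense-mediated decay, *Upf2* was called higher at 10 mg/kg against the control ASO (2.39 ± 0.47, limma adjusted p = 0.0491) beside the calls of *Upf3b*. The *Upf2* call was lost when control mouse 3 or 4 was left out, where no gene was called higher. The summed level of the 17 integrated stress response genes was 564 to 919.8 TPM at 20 mg/kg, 376 to 530 TPM with the control ASO at that dose and 317 to 738 TPM with DPBS, and 4 of these genes were at 0 in every control ASO liver at 20 mg/kg. The 20 proliferation genes summed to 123 to 255 TPM at 20 mg/kg and 119 to 203 TPM with the control ASO. Of 8 endothelial markers, *Pecam1*, an adhesion molecule of endothelial cells, was called at 20 mg/kg against the control ASO (1.27 ± 0.28, limma adjusted p = 0.0201), and the markers together summed to 1568 to 2263 TPM against 651 to 1695 TPM, with 661 to 2426 TPM in DPBS livers. *Pecam1* made up most of that sum, at a mean of 1745 TPM against 809.6 TPM, and the other 7 markers summed to 82.5 to 241 TPM against 166 to 250.2 TPM. The median of the 8 was -0.12. The 10 Kupffer cell and macrophage markers summed to 335 to 717 TPM at 20 mg/kg and 260 to 822 TPM with the control ASO, and the 9 hepatocyte markers to 21352 to 31860 and 21595 to 30845 TPM. The part of these cell types in the levels of *Phlda3*, *Ccng1* and *Bax* was not tested. In bulk liver RNA, more cells of a type and more RNA per cell cannot be told apart.

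The liver of mouse 2 was set against the other 30. Besides the 4 members named above, it was the highest of all livers in 5 of 34 detected other p53 targets, among them *Ddit4* and *Gadd45a*, and in 0 of 21 p53 regulators. *Ddit4*, an mTORC1 inhibitor, was at 1202 TPM there, against 120.3 TPM in the next highest liver, and *Gadd45a*, a growth arrest gene, at 138 TPM against 16.8 TPM. Of the immediate early genes *Jun* was at 804 TPM against 38.4 TPM, *Junb* at 2495 TPM against 254 TPM and *Egr1* at 433 TPM against 47.2 TPM. It was highest in 6 of 17 integrated stress response genes, among them *Ddit3*, which encodes CHOP, at 105 TPM against 44.3 TPM. It was highest for 2 of 7 cholangiocyte markers, *Krt7* and *Sox9*, and for 0 of the 9 hepatocyte, 10 Kupffer cell and 8 endothelial markers. Its *Upf3b* level of 2.68 TPM was within its group. In this liver *Phlda3*, *Ccng1* and *Bax* were at 15.7, 17.7 and 122 TPM, so the members did not move as 1 block across livers.

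**Figure D5:**
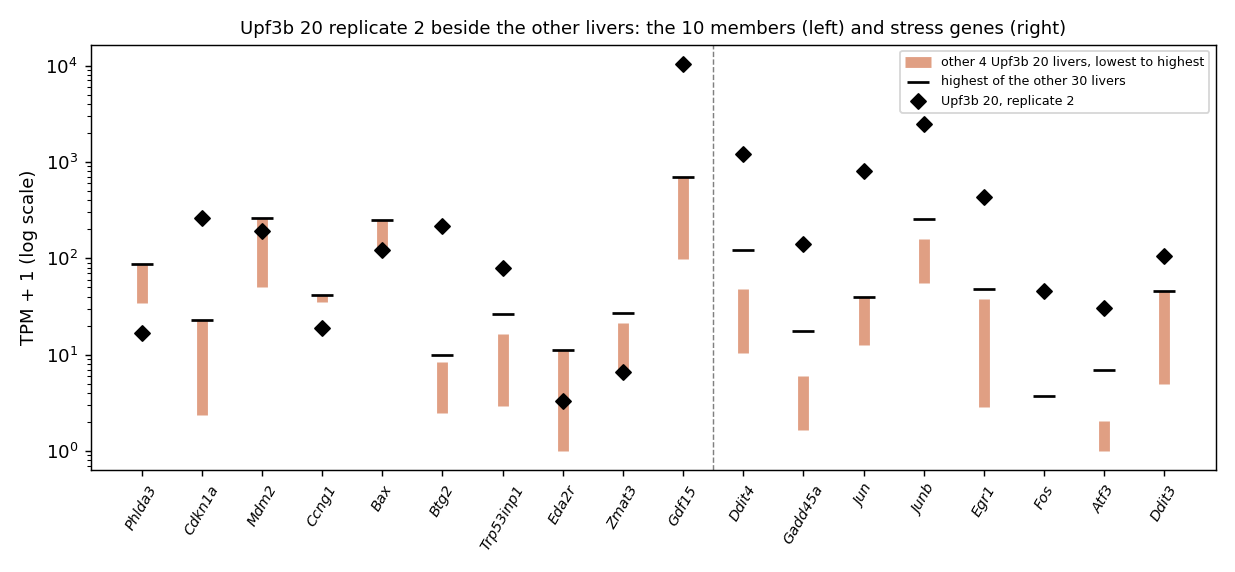
Levels (TPM + 1 on a log axis) in mouse 2 of the *Upf3b*-GalNAc-ASO 20 mg/kg group, drawn as black diamonds, with a thick bar from the lowest to the highest of the other 4 livers of its group and a short line at the highest of the other 30 livers, for the 10 members on the left and for stress genes on the right. The diamond is the highest of all livers for *Cdkn1a*, *Btg2*, *Trp53inp1* and *Gdf15* and for each of the stress genes shown, but not for *Phlda3*, *Ccng1* or *Bax*.

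The genes whose levels followed *Phlda3* most closely over the 31 livers, by Pearson's r of log2(TPM + 1) among 9839 genes, were *Zbp1* (0.800), a sensor of Z-form nucleic acids, *Adam32* (0.795), *Ccng1* (0.758) and the interferon-induced *Ifit1* (0.740) and *Isg15* (0.739). Without the *Upf3b*-GalNAc-ASO 20 mg/kg livers these were 0.686, 0.589, 0.644, 0.714 and 0.611. Of the other members *Bax* ranked 29 (0.627), *Cdkn1a* 353 (0.438), *Btg2* 866 (0.346) and *Gdf15* 873 (0.345). *Mdm2* ranked 2760 (0.160), *Trp53inp1* 3557 (0.103) and *Zmat3* 4295 (0.048), and *Eda2r* was too low to be ranked. The points share the differences between groups and in depth, so these values describe likeness across these livers only.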

How the data were processed

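Liver RNA of 31 mice was sequenced by the authors, who deposited 1 table of TPM per gene symbol for each mouse. Per the labels, reads were converted with bcl2fastq 2.17.1.14 and quantified with Salmon 0.7.2 (GRCm38.p4). The study's methods name Ensembl cDNA and a TruSeq library, whereas the labels name a 3′ kit. In each liver 69.9% to 81.5% of the values were whole multiples of a step, within 0.02, so the deposited TPM behave as scaled reads not divided by length. Levels of different genes are not compared per length. As the other values were not whole, no count test was run. 26 symbols that read as dates were left out. Groups were taken from the labels.

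log2(TPM + 1) was fitted with limma 3.58.1 (R 4.3.3, trend and robust) with sex as a covariate, two-sided, for genes whose median reached 5 TPM in 1 or both groups. The script was tested on simulated data. Alternatives were other pseudocounts, filters, scalings, weights and fits, omission of each mouse, a replicate block and, chosen after seeing the data, omission of the 4 livers under 1.5 M reads. The members and gene lists were chosen with earlier results of these data known. The text names all 10 members, *Upf3b*, *Trp53*, the called genes of the other p53 lists or else their 2 highest and 2 lowest, at most 2 called genes of each other list, and the 5 genes most like *Phlda3*. Genes shown for mouse 2 were chosen after their values were seen, and 1 of them is not reported here. Promoter windows come from RefSeq and gene positions from GENCODE M21.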

Additional observations from a re-analysis of the deposited data

Results flagged for a closer look

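Of 36 groups of 4 to 6 livers tested for a value of a member other than *Phlda3* far from the rest (Dixon's test), 10 had one. The cut-off stands for about 1 in 20 only for independent, normally spread values. These levels include values at 0, and the same liver gave several of the flags, so the count is not set against chance. In the *Upf3b*-GalNAc-ASO 20 mg/kg group, mouse 2 stood apart upward in *Gdf15* (10376 TPM, next 702 TPM), *Cdkn1a* (259 TPM, next 21.7 TPM), *Btg2* (213 TPM, next 7.46 TPM) and *Trp53inp1* (77.6 TPM, next 15.4 TPM), and downward in *Ccng1* (17.7 TPM, next 34.1 TPM). Mouse 4 of the same group stood apart in *Eda2r* (10.1 TPM, next 2.56 TPM). Under the control ASO, mouse 6 at 20 mg/kg stood apart in *Cdkn1a* (10.0 TPM) and *Eda2r* (5.94 TPM), and at 15 mg/kg mouse 2 in *Eda2r* (1.19 TPM, the other 3 at 0) and mouse 3 in *Gdf15* (194 TPM). The *Eda2r* values rest on 5 to 22 reads. No difference between the 2 dose levels passed its test.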

How the results depend on the processing

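The count of called members was 2 at 20 mg/kg against the control ASO. It was 1 with a pseudocount of 0.5, a filter at 1 TPM, no sex covariate or 1 fit of all 31 mice, and 0 without a filter, with eBayes without trend and robust, or without control mouse 1, its liver under 1.5 M reads. Leaving out 1 mouse gave 0 to 2. Against DPBS it was 2, and 0 without a filter, 1 with eBayes without trend and robust, 1 without the livers under 1.5 M reads, and 0 to 2 with 1 mouse left out. It was 3 with 1 fit of all 31 mice, the third being *Cdkn1a*, which in the fit of these 2 groups without mouse 2 differed by 1.70 (limma adjusted p = 0.343). That fit also called 1 member, *Ccng1*, at 10 mg/kg against DPBS, and weights per mouse called 1, *Mdm2*, for the control ASO at 15 mg/kg against DPBS. The cause of these changes was not tested. *Ccng1* and *Bax* stayed above 0 in both comparisons at 20 mg/kg in each setting run.

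*Trp53inp1* at 20 mg/kg against the control ASO, at -0.01, changed sign to 0.10 with a pseudocount of 5, 0.093 with median-ratio scaling, 0.12 with quantile normalization and 0.15 without the liver under 1.5 M reads, and ranged from -0.71 to 0.47 with 1 mouse left out. Against DPBS that range was -0.20 to 0.95, and for *Zmat3* at 10 mg/kg against the control ASO it was -0.021 to 0.71.

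Same-numbered mice did not deviate together (correlations of -0.29 to 0.19), so the numbers do not pair the mice. A replicate block called 0 members in each of the 8 comparisons, *Trp53inp1* turned to 0.11 under it, and the genes called went from 27 to 95, 236 to 45, 34 to 9 and 103 to 42 in the 4 comparisons of *Upf3b*-GalNAc-ASO with a control. At most 2 mice of a comparison correlated best with their own number.

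Counts over all genes moved more. At 10 mg/kg against the control ASO the 27 became 5 to 388 in other settings and 2 to 431 with 1 mouse left out, with 431 without treated mouse 1 and 91 without treated mouse 3. The 236 became 45 to 304 and 70 to 270, the 34 became 9 to 62 and the 103 became 42 to 163. The 0 calls of the control ASO at 15 mg/kg against DPBS became up to 261 (weights per mouse), those at 20 mg/kg up to 9, those between the control doses up to 19, those of the dose-level difference up to 13 and the 127 of sex 86 to 245. The precision of the low members is limited by depth: over the 6 control ASO livers at 20 mg/kg together, *Eda2r* had 33 reads, *Btg2* 64 and *Cdkn1a* 76.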
